A study of Mus musculus with 6 samples.

Results

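The 10849 regions described here are stretches of open chromatin away from gene ends that were listed in mouse embryonic stem cells held in 2iL and 48 h after 2iL withdrawal, and were not listed at 96 h. They were chosen by presence in the deposited peak lists. Overlap of 1 bp or more joined intervals from any of the 3 lists, which gave 131410 regions, and a region was taken if it held an interval from 2iL and from 48 h but none from 96 h. Its midpoint had to lie more than 1 kb and at most 100 kb from the nearest end of a protein-coding gene. Of the 131410 regions, 96217 met the distance limits and 41105 of these were listed both in 2iL and at 48 h. The 10849 are 26.4% of those 41105, and the other 30256 were listed at all 3 times and are called persistent regions below. Without the distance limits, 13153 of 60329 regions shared by 2iL and 48 h were missing at 96 h (21.8%).

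All samples were E14 mouse embryonic stem cells, a single line derived from a blastocyst, grown on gelatin in serum-free N2B27 medium. The 2iL group had CHIR99021, which inhibits the kinase GSK3, PD0325901, which inhibits MEK, and the cytokine LIF in that medium. For the 48 h and 96 h groups, 2iL was taken away a day after plating and the cells stayed in N2B27 alone for that time. Chromatin was assayed by ATAC-seq, in which a transposase cuts and tags accessible DNA, with 2 samples a group and 1 peak list for both samples together.

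In 2iL, inhibition of MEK and GSK3 together with LIF holds mouse embryonic stem cells in the naive state, which resembles the epiblast before implantation. When these factors are removed, cells take down the naive transcription factor network and pass through a formative state towards lineage commitment. Distal accessible regions include enhancers, which are bound by transcription factors and can act on genes far from where they lie, so the nearest gene is a label for a region and need not be its target.

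The word closing has a narrow basis in these data. A region missing from the 96 h list had no interval past the authors' limit, and its signal at 96 h was not measured here. The lowest score was 540 in each list, but the basis of the limit was not given. Whether it included agreement between samples A and B is not known. A weaker signal, a signal that differed between the 2 samples and a closed region therefore cannot be told apart. The 3 lists held 91228, 88810 and 78055 intervals for 2iL, 48 h and 96 h. The background recovered from the lists' own fold and p values was 14.2, 15.2 and 13.99 tags per position, so the 48 h list rested on about 1.085 times the depth of the 96 h list if reads were extended equally. The effect of this difference on the absence of regions at 96 h was not tested. The lists allow no spread between replicates, so differences between the times have no test and no p-value. Intervals in brackets are exact (Clopper-Pearson) 95% intervals, which reflect counting error alone and take regions as independent.

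The stem cell label was checked on the ends of marker genes. An interval lay within 1 kb of an end at 7 of 8 pluripotency markers in 2iL, at 8 at 48 h and at 8 at 96 h, and Esrrb was the gene without one in 2iL. For extraembryonic endoderm the counts were 3, 3 and 5 of 6, for trophoblast 4, 5 and 4 of 6, and for fibroblasts 4 in each list. Of the distal regions in 2iL and at 48 h that were nearest to these markers, 28 of 62 were missing at 96 h for pluripotency, 3 of 18 for endoderm, 4 of 31 for trophoblast and 2 of 20 for fibroblasts, beside the 26.4% over all. The 28 lay at 4 of the 8 pluripotency markers, 10 at Esrrb, 8 at Sox2, 7 at Zfp42 and 3 at Sall4. The choice of the regions used absence at 96 h, so these counts are descriptions. Accessible gene ends do not measure expression, and a part of other cell types in the result was not tested.

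A subset of the regions could be read as sequence, because they hold a whole RefSeq promoter window (GRCm38.p6, 250 bases before to 50 bases after a transcript start). There were 142 such windows, counted without 1 chromosome that is not shown here, and 23 of them belonged to protein-coding genes. The 5 windows below were picked after their values were seen, to show the strongest region of all and a range of base compositions and motif matches. Each is given 5′ to 3′ on the plus strand of mm10, and capitals mark matches to short motifs described after them. The first, at chr13:65415019-65415318, belongs to the long non-coding RNA Gm40985 and lies in the region with the highest fold of the 10849 at both times. The second, at chr17:88668410-88668709, belongs to Gtf2a1l, a germ cell form of a subunit of the general factor TFIIA. The third, at chr12:12987131-12987430, belongs to the non-coding RNA Gm35208 in a region nearest to Mycn, a growth-promoting transcription factor. The fourth, at chr14:76488186-76488485, is an inner start of Tsc22d1, a leucine zipper factor. The last, at chr11:73329491-73329790, belongs to Spata22, a meiotic recombination gene.
Gm40985: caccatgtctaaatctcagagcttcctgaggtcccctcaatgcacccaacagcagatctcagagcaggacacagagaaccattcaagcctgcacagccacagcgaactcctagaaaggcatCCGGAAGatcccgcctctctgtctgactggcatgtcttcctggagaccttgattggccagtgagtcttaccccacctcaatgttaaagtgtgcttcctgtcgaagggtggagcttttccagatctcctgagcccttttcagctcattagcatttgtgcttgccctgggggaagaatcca
Gtf2a1l: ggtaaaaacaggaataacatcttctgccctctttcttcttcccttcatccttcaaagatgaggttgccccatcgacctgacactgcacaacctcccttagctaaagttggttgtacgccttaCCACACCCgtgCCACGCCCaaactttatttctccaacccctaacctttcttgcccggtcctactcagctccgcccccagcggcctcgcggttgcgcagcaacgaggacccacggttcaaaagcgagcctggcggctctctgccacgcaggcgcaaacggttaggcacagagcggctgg
Gm35208: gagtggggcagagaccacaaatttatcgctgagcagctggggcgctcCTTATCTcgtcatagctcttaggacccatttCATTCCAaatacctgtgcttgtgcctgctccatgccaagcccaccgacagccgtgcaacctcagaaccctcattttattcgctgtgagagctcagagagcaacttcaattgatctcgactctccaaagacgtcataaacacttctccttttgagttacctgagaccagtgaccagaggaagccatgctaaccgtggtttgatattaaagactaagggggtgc
Tsc22d1: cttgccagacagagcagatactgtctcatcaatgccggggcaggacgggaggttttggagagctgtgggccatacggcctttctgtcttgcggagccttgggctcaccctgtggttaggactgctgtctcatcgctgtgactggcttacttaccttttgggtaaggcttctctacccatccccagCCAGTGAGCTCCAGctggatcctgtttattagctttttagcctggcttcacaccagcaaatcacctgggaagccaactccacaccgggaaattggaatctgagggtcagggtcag
Spata22: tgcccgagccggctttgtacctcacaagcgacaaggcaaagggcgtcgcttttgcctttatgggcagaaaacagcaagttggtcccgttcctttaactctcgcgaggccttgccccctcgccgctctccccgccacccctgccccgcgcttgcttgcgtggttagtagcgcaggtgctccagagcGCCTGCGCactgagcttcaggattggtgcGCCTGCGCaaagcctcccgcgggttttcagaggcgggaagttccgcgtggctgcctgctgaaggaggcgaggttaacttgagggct

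In the Gm40985 window the capitals are CCGGAAG, the core bound by ETS factors. In that of Gtf2a1l they are 2 matches to GGGNGTGG on the opposite strand, a motif of the KLF factors. The Gm35208 window holds AGATAAG on the opposite strand, a GATA motif, and CATTCCA, a TEAD motif. That of Tsc22d1 has CCAG, 6 bases, CCAG, the paired half-sites bound by TFCP2L1, and that of Spata22 has GCGCANGC on the opposite strand at 2 places, part of the NRF1 motif. None of the matches shown overlap each other. A match describes letters and is not a binding site, and both strands were searched.

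The regions with these 5 windows differed in strength and composition. The Gm40985 region had fold enrichments of 43.5 in 2iL and 37.2 at 48 h, and its window was 52.3% G and C with a CpG ratio, observed over expected, of 0.199. Folds are the authors' values for the summit with the highest −log10 p in the region, relative to local background. The Gtf2a1l region had folds of 12.3 and 16.3, and its window had a CpG ratio of 0.801. Folds were 17.2 and 11.4 at Gm35208, 6.92 and 8.70 at Tsc22d1, and 8.09 and 6.12 at Spata22, whose CpG ratio was 0.849. The nearest 96 h interval lay 62.9 kb from the first, 14.8 kb from the second, 5.37 kb from the third, 6.01 kb from the fourth and 23.7 kb from the last.

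Promoter windows were rarer in the regions missing at 96 h than in persistent ones, as they were in the other classes absent from at least 1 list. Of the 10849, 231 overlapped at least 1 base of such a window, or 2.13% (1.87 to 2.42), against 6.59% of all 41105 distal regions in 2iL and at 48 h and 8.19% (7.88 to 8.50) of the persistent ones. The share was 1.17% (1.04 to 1.32) of distal regions only in 2iL, 1.45% of those only at 48 h, 1.38% of those only at 96 h and 2.95% (2.63 to 3.30) of those at 48 h and 96 h. Of the 231 regions, 196 were at a long non-coding RNA and 35 at a protein-coding gene, while for the persistent regions the counts were 883 and 1594. Non-coding RNAs were also the larger group in regions only in 2iL (202 and 57), only at 48 h (109 and 47) and only at 96 h (96 and 43). The difference from persistent regions was seen on both sides of the median 48 h fold. Below that median, 17.9% (15.5 to 20.5) of the regions with a window were missing at 96 h and 41.8% (41.1 to 42.5) of those without one. Above it the shares were 3.57% (2.75 to 4.54) and 12.9% (12.4 to 13.4).

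The windows that were overlapped also differed in base composition. Windows at the regions missing at 96 h had a median of 51.7% G and C and a median CpG ratio of 0.286, and 7.79% had a ratio over 0.6. Windows at persistent regions had medians of 58.7% and 0.612, and 51.3% were over 0.6. Over all 32851 windows in the table the values were 52.7%, 0.384 and 35.8%. The sets differed in transcript type too, with 196 of 231 regions at a long non-coding RNA against 883 of 2477 persistent ones. The part of transcript type in base composition was not tested. CpG-rich promoters are the usual form at broadly expressed genes, and CpG-poor ones are common at non-coding and tissue-restricted transcripts.

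Of 18 motifs searched in the 231 windows, 9 are given here beside their shares in all 32851 windows of the same length, 6 because they match the printed windows and SOX, ZIC and ESRRB because they were picked after their values were seen. GGGNGTGG (KLF) was in 52 of 231, 22.5% (17.3 to 28.4), against 17.6% of all windows and 21.3% of those at persistent regions. CCATTGT (SOX) was in 6.49% (3.68 to 10.5), against 3.66% of all and 2.58% at persistent regions. CAGCGGG (ZIC) was in 4 windows, 1.73% (0.474 to 4.37), against 5.65% and 8.80%. The other motifs seen in the printed windows were CCGGAAG in 9.09% against 8.86% of all, the TFCP2L1 pair in 4.76% against 3.44%, GCGCANGC in 9.52% against 9.95%, AGATAAG in 4.33% against 3.04% and CATTCCA in 2.60% against 4.29%. For TCAAGGTCA, the full site of ESRRB and NR5A2, 0 of 231 windows matched, with an upper bound of 1.58%, against 0.423% of all. The windows cover 2.13% of the regions, and the sequence of the rest was not analysed here. Base composition differed between the sets of windows, and its part in these motif shares was not tested.

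The regions missing at 96 h were already among the weaker ones in both earlier lists. Their median fold was 7.70 in 2iL (quartiles 5.76 to 10.6) and 6.60 at 48 h (5.13 to 8.72), against 9.41 and 10.1 for persistent regions. For comparison, distal regions listed only in 2iL had a median 2iL fold of 6.51, those listed only at 48 h a median 48 h fold of 5.42, and those listed at 48 h and 96 h but not in 2iL one of 6.78. Of the regions missing at 96 h, 77.0% (76.2 to 77.8) were below the median 48 h fold of the 41105, which was 8.96, and 62.2% (61.3 to 63.1) were below the median 2iL fold. Among persistent regions these shares were 40.3% (39.7 to 40.9) and 45.6% (45.1 to 46.2). The median pileup at the summit, where it could be solved from fold and p, was 174 tags in 2iL and 148 at 48 h, and 209 and 240 for persistent regions.

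Ranks within each list set the 2 earlier times side by side without comparing folds between lists. Ranked by fold among the 41105 distal regions, with 100 the strongest, the regions missing at 96 h had a median percentile of 38.5 in 2iL and 28.0 at 48 h. Persistent regions had medians of 54.3 and 59.2. A lower rank at 48 h than in 2iL was found for 64.7% (63.8 to 65.6) of the former and 44.8% (44.2 to 45.4) of the latter.

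The share missing at 96 h varied over a wider range with strength at 48 h than with strength in 2iL. When the 41105 regions were put in 10 groups by 48 h fold, 48.7% (47.1 to 50.2) of the weakest group and 3.45% (2.92 to 4.06) of the strongest were missing at 96 h. Grouped by 2iL fold, the shares were 35.2% (33.7 to 36.7) in the weakest group, 36.4% (35.0 to 37.9) in the next and 13.5% (12.5 to 14.6) in the strongest. Regions above the median in 2iL but below it at 48 h were missing in 47.7% (46.3 to 49.0) of 5099 cases, with a median 48 h fold of 7.17. Those below the median at both times were missing in 38.4% (37.6 to 39.1) of 15453, with a lower median 48 h fold of 5.96. In the opposite case, above the median at 48 h and below it in 2iL, 16.0% (15.01 to 17.04) of 5099 were missing, and above it at both times 10.8% (10.3 to 11.3) of 15454. All these shares describe the choice of the regions and test nothing.

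**Figure D1:**
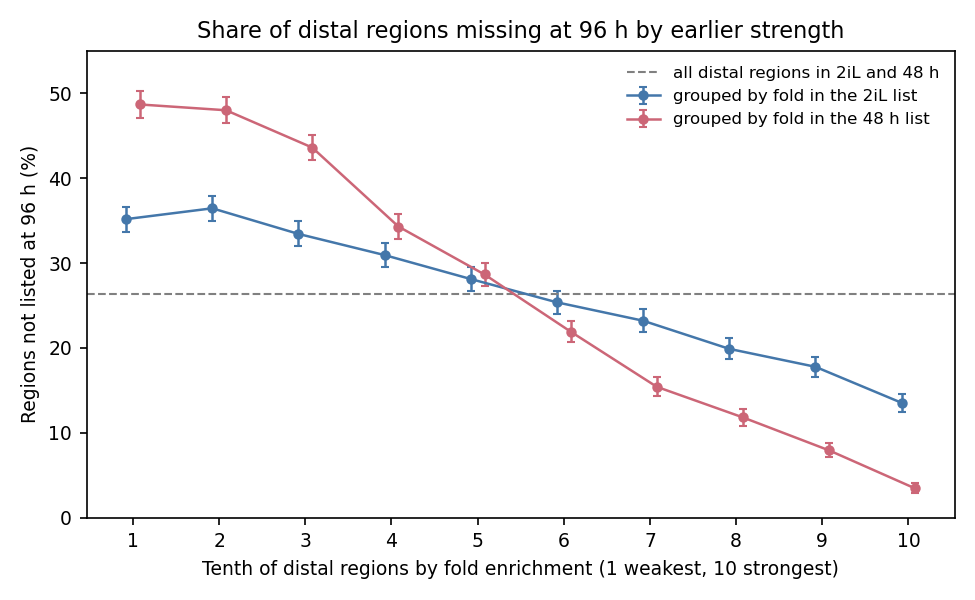
The vertical axis gives the percent of distal regions of 2iL and 48 h that were not listed at 96 h, the horizontal axis their group out of 10 by fold enrichment in the 2iL list (blue) or the 48 h list (red). Bars are exact 95% intervals and the dashed line is the 26.4% over all 41105 regions. The red line falls from 48.7% to 3.45%. The blue one goes from 35.2% in group 1 to 36.4% in group 2 and then falls to 13.5%.

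Median width moved in opposite directions in the 2 sets. Width was not a limit in the choice of regions, but it is not independent of it, because the extent of an interval bears on what it overlaps. Widths and summits were summed over all intervals joined in a region, and 29019 of the 30256 persistent regions had 1 interval in each list. Regions missing at 96 h had a median width of 661 bp in 2iL and 574 bp at 48 h, while persistent regions went from 679 to 707 bp. Of the former, 61.3% (60.4 to 62.2) were narrower at 48 h than in 2iL, against 45.1% of all 41105 and 39.3% (38.8 to 39.9) of the persistent ones. Their median ratio of 48 h width to 2iL width was 0.954, and that of persistent regions 1.03. Called widths move with signal strength, so the shares are also given by strength class. A cut at the median does not make strength equal within a class. The part of strength in the width change was not tested. Below the median 48 h fold, 64.1% (63.1 to 65.1) of the regions missing at 96 h and 43.2% (42.3 to 44.1) of the persistent ones were narrower at 48 h. At or above it, the shares were 52.0% (50.02 to 53.99) and 36.7% (36.0 to 37.4).

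Summits within a region moved likewise. The mean number of summits went from 1.95 to 1.80 in the regions missing at 96 h and from 2.10 to 2.23 in persistent ones. There were fewer summits at 48 h than in 2iL in 26.1% (25.2 to 26.9) of the former, against 19.6% of all 41105 and 17.2% (16.8 to 17.7) of the persistent regions. The deposited score was at its highest value, 1000, in 74.5% of the regions missing at 96 h in 2iL and 65.4% at 48 h. For persistent regions it was 86.6% and 93.5%.

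**Figure D2:**
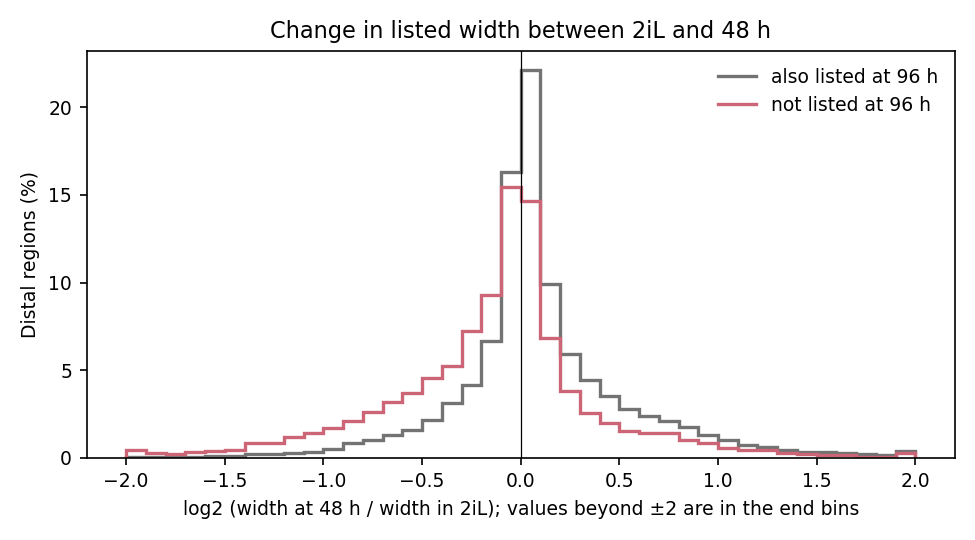
Histograms of the log2 ratio of width at 48 h to width in 2iL for distal regions not listed at 96 h (red, 10849) and listed at all 3 times (grey, 30256), with the vertical axis in percent of each set. The red histogram lies further to the left, with 61.3% of regions below 0 against 39.3% for the grey one.

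By position, the regions missing at 96 h lay slightly further from gene ends than persistent ones. Their median distance to the nearest end was 15.6 kb (quartiles 6.84 to 35.0), against 12.8 kb for persistent regions and 17.2 kb for those only in 2iL. The share missing at 96 h was 17.6% (16.3 to 19.0) at 1 to 2 kb from a gene end, 22.8% at 2 to 5 kb, 25.1% at 5 to 10 kb, 29.0% at 10 to 20 kb, 27.9% at 20 to 50 kb and 30.4% (29.2 to 31.6) at 50 to 100 kb. The median 48 h fold also rose with distance, from 7.43 in the nearest class to 9.61 in the farthest. Inside a protein-coding gene lay 54.3% (53.3 to 55.2) of the regions missing at 96 h, against 55.5% of all 41105, 55.9% (55.3 to 56.5) of persistent regions and 59.3% (58.6 to 59.9) of those only in 2iL. The gene table has no exons or strand, so exons, introns and untranslated parts were not told apart.

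Near the limits of the choice, the region just past 1 kb lay 1003.5 bp from an end of Prr14 (chr7:127465032-127465609, folds 14.7 and 10.4). The nearest one left out lay 998 bp from Gm18905. At the far limit, a region 99925.5 bp from Pabpc2 was taken and one 100046 bp from Magi1 was not. The smallest gap to a 96 h interval among the chosen regions was 16 bp, near Fbf1, and the smallest overlap that made a region persistent, among those with 1 interval a list, was 62 bp near Gnb1l.

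The choice left out every region that a 96 h interval overlapped, which bears on the gaps to such intervals. Gaps to any 96 h interval are given for the chosen regions alone, without a comparison class. The gap to the nearest 96 h interval had a median of 5799 bp (quartiles 2368 to 12226), and 593 of 10849, or 5.47% (5.05 to 5.91), were within 500 bp. Within 10 kb, 68.8% (67.9 to 69.7) had a 96 h interval. A region present in every list, at any distance from a gene end, lay within 10 kb of 56.6%. A region that was absent in 2iL and listed at 96 h lay within 10 kb of 30.3% (29.5 to 31.2), against 35.5% (34.9 to 36.0) of persistent regions and 27.6% (27.0 to 28.2) of those only in 2iL. A region listed only in 2iL, at any distance from a gene end, lay within 10 kb of 40.1% (39.1 to 40.99) of the regions missing at 96 h. The share was 34.4% (33.9 to 34.9) for persistent regions. Another region of the same class lay within 10 kb of 24.0% (23.2 to 24.8) of the regions missing only at 96 h, against 49.3% (48.7 to 49.8) of persistent regions and 42.0% (41.4 to 42.7) of those only in 2iL. These classes differ in size, with 10849, 30256 and 22066 regions. Across the autosomes the share of distal regions missing at 96 h ran from 23.0% to 30.6%, and on the X chromosome it was 25.3% (21.9 to 28.9).

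The regions were spread over 6472 of 21887 protein-coding genes, taking the gene with the nearest end. Of these genes, 4044 had 1 such region and 202 had 5 or more, which held 1259. There were 13108 genes with a distal region in 2iL and at 48 h, and at 1358 of them all such regions were missing at 96 h. Only 53 of the 1358 had 3 or more, and 2 had at least 5. These were Mapk6, an atypical MAP kinase gene, with 6 regions of 48 h fold 4.13 to 6.55, and Zfp990, a zinc-finger gene, with 5 of fold 4.36 to 12.2. Flt3, a receptor tyrosine kinase gene, lost all 4 from the list, as did Ikbkb, a kinase of the NF-kB pathway. The latter pair lies outside the rule for named genes and was picked after its values were seen.

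Arl15, which encodes a small GTPase-like protein, had the most, with 15 of 22. Its 15 regions had 48 h folds of 4.43 to 12.5 and 2iL folds of 5.29 to 14.7, and another 11 regions nearest to it were listed only in 2iL. The strongest of the 15 in 2iL, at chr13:114202661-114203575, had folds of 14.7 in 2iL and 10.6 at 48 h. Mtcl1, a microtubule-binding protein gene, had 11 of 21, and the zinc-finger gene Zfp64 had 11 of 24. Genes with 10 were Arhgef3 (10 of 14), the death-domain adaptor Cradd (10 of 21), Dym (10 of 17), Esrrb (10 of 18), and Morc1, which silences transposons in the germ line (10 of 16). The others with 10 were the unconventional myosin gene Myo1e (10 of 17), Plekha5 (10 of 17), and the mitochondrial carrier gene Slc25a13 (10 of 15). A further 11 genes tied at 9, and the 4 first by symbol are named here and plotted. They were Arid1b, a subunit of the BAF remodelling complex (9 of 19), the glycosyltransferase gene B4galt6 (9 of 11), the axonemal dynein gene Dnah8 (9 of 21) and the fatty acid elongase gene Elovl6 (9 of 14). Genes with many distal regions have more that can go missing, so these counts do not rank genes by share.

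**Figure D3:**
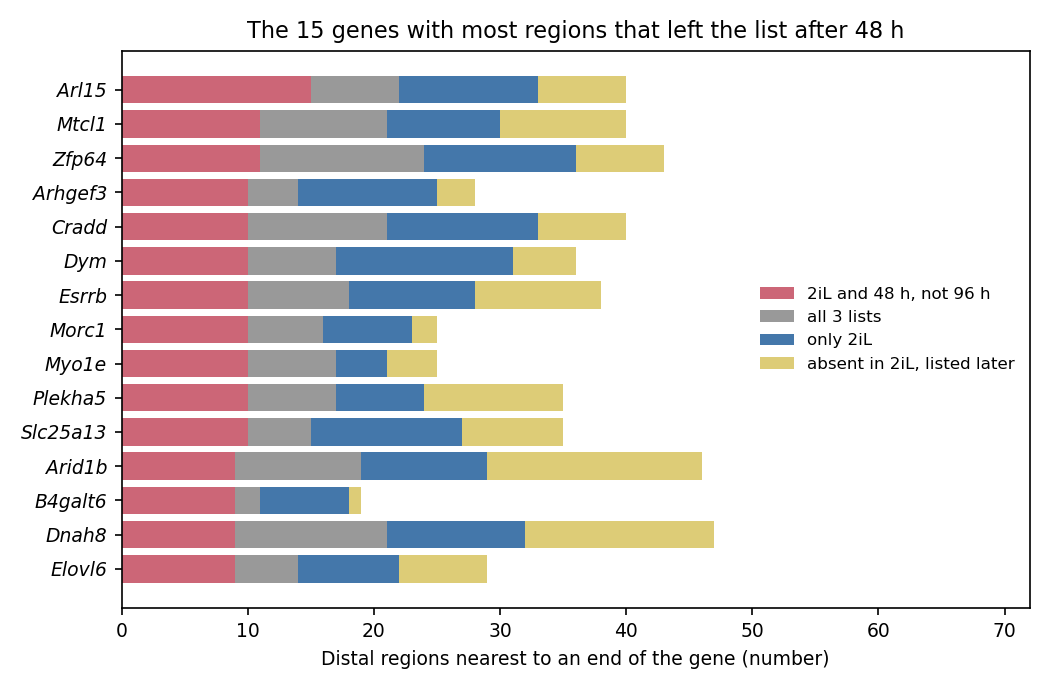
Each bar gives the number of distal regions nearest to an end of the gene, split by the lists that held them, for the 15 genes with most regions in 2iL and at 48 h but not at 96 h (red, 9 to 15 a gene). The last 4 are the first by symbol of 11 genes tied at 9. Grey regions were in all 3 lists, blue ones only in 2iL, and yellow ones were absent in 2iL and listed later.

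Of 20 naive pluripotency genes, 19 had distal regions shared by 2iL and 48 h, and 42 of these 121 regions were missing at 96 h, at 14 genes. This is 34.7% (26.3 to 43.9), beside the 26.4% over all distal regions. The list's regions had a median 48 h fold of 8.28, below the 8.96 over all. Below the overall median 48 h fold 52.9% of the list's regions were missing, and above it 11.3%, beside 40.7% and 12.1% over all. Because absence at 96 h chose the regions, these shares and those of the lists below are descriptions and support nothing about the lists.

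Zfp42, which encodes the naive marker REX1, had 7 of 8 missing at 96 h. The strongest in 2iL lay at chr8:43320611-43321411, outside the gene and 14.0 kb from its end, where the fold was 20.2 in 2iL and 9.21 at 48 h. Its rank percentile went from 97.0 to 52.2. A region inside the gene at chr8:43299367-43300514, 4.87 kb from an end, had folds of 8.29 and 10.5 and was narrower at 48 h, 719 bp against 1148 bp. A second inside the gene, 1.15 kb from an end, had folds of 4.62 and 6.18, with a 96 h interval 0.73 kb away. The other 4 had 48 h folds of 6.43 to 9.09. Of the 7 regions, 5 had a higher rank at 48 h than in 2iL.

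At Esrrb, an orphan nuclear receptor of the naive network, 10 of 18 were missing at 96 h, and 9 of the 10 lay inside the gene. Their 48 h folds were low, from 3.58 to 7.89 with a median of 5.38. The region at chr12:86435436-86436217 went from rank percentile 30.4 to 3.18, with folds of 6.92 and 3.58. The region at chr12:86507670-86508933, with folds of 3.20 and 7.89, moved from 1.48 to 40.5, and a 96 h interval lay 0.42 kb from it. Besides these, 10 regions at Esrrb were listed only in 2iL and 10 were absent in 2iL and listed later.

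Klf5, a KLF factor of naive cells, had 4 of 8 missing at 96 h, with 48 h folds of 4.76 to 9.58. Prdm14, a regulator of naive pluripotency and of germ cells, had 4 of 9, with folds of 3.83 to 8.72. Tbx3, a T-box factor of the naive network, had 3 of 13. Fgf4, the main FGF ligand of these cells, had 2 of 2, with 48 h folds of 2.97 and 4.84. The naive factor Tfcp2l1 and the AKT coactivator Tcl1 each had 2 of 5, the adhesion molecule Pecam1 had 2 of 7, and the nuclear receptor Nr5a2 had 2 of 12. Dppa5a and Klf2 had 1 of 3 each, Dppa3 1 of 5 and the cytosine oxidase Tet2 1 of 6. Klf4 and Nanog had 0 of 5 each, and are named after their values were seen.

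General pluripotency genes had 29 of 79 missing at 96 h, 36.7% (26.1 to 48.3), at 7 of 15 genes, and the list's median 48 h fold was 7.40. Zfp281, a zinc-finger factor needed for the exit from naive pluripotency, had 9 of 16. Its region at chr1:136613052-136614001, 11.4 kb from an end, had folds of 17.1 in 2iL and 4.57 at 48 h and fell from rank percentile 92.1 to 8.92. Its width went from 950 to 466 bp. Another at chr1:136658802-136660415 had folds of 8.13 and 3.36, and its width went from 1614 to 708 bp.

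Sox2, a core pluripotency factor also used in neural progenitors, had 8 of 16, none inside the single-exon gene. They lay 12.8 to 94.5 kb from its ends, with 48 h folds of 3.06 to 11.9. The strongest in 2iL, at chr3:34734698-34735471, had folds of 13.1 and 11.8 and lay 82.6 kb away. The region at chr3:34727716-34728794 had folds of 5.39 and 11.9, widths of 493 and 1079 bp, and no 96 h interval within 16.4 kb. At the remaining genes the counts were 4 of 14 for Tcf7l1, a WNT pathway repressor of the naive network, and 3 of 7 for the zinc-finger factor Sall4. Mycn had 3 of 9, and Dppa4 and Rif1 had 1 of 1 each. The Dppa4 region, at chr16:48233741-48234396, moved up before it left the list, from rank percentile 27.4 to 93.7, with folds of 6.64 and 18.5.

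**Figure D4:**
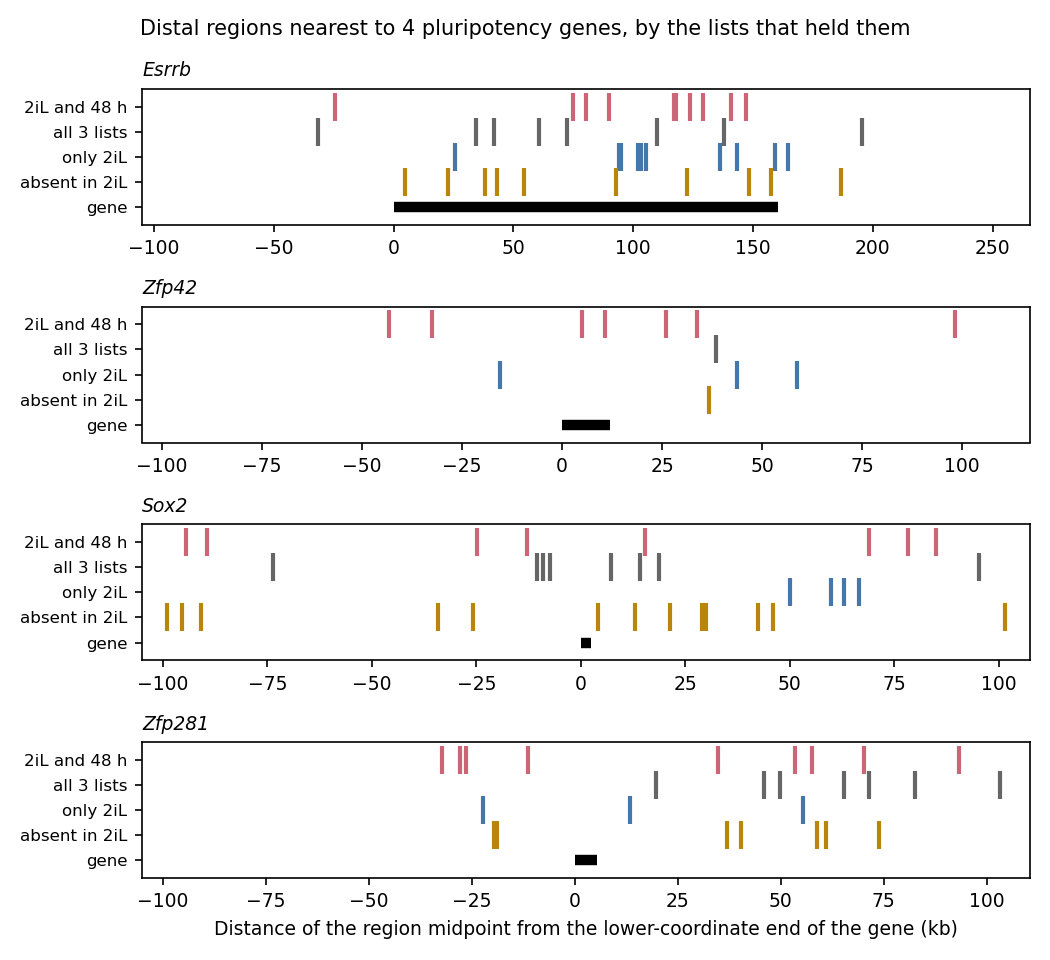
Each tick is the midpoint of a distal region nearest to the gene, plotted by its distance in kb from the lower-coordinate end, and rows give the lists that held it. Black bars are the genes. Ticks in the top row of each panel are the regions in 2iL and at 48 h but not at 96 h, 10 at Esrrb, 7 at Zfp42, 8 at Sox2 and 9 at Zfp281.

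Formative and primed pluripotency genes had 23 of 104 missing at 96 h, 22.1% (14.6 to 31.3), at 10 of 19 genes. Lef1, a WNT effector, had 5 of 16 and Grhl2, a factor of epithelial enhancers, had 4 of 16. The 4 at Grhl2 had 2iL folds of 8.55 to 19.0 and 48 h folds of 7.67 to 10.9. Foxd3 had 3 of 8, the neural cadherin gene Cdh2 2 of 4, Nodal, a TGF-beta ligand, 2 of 4, the ETS factor Etv5 2 of 7 and the DNA methyltransferase gene Dnmt3a 2 of 10. Zic5 had 1 of 4, Pou3f1 1 of 5 and Sox4 1 of 8.

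Chromatin remodeller and Polycomb genes had 35 of 93 missing at 96 h, 37.6% (27.8 to 48.3), at 13 of 18 genes. The list's median 48 h fold was 7.95, below the 8.96 over all. Below the overall median 27 of 56 (48.2%) were missing and at or above it 8 of 37 (21.6%), beside 40.7% and 12.1% over all. Arid1b had 9 of 19, and Jarid2, which recruits Polycomb complex PRC2, had 6 of 16, with 48 h folds of 5.38 to 10.6. Eed, a core PRC2 subunit, had 4 of 9, the BAF ATPase gene Smarca4 3 of 6 and the remodeller gene Chd7 3 of 11. Cell adhesion and EMT genes had 31 of 79, 39.2% (28.4 to 50.9), and a median 48 h fold of 7.91. For these, 25 of 46 (54.3%) were missing below the overall median and 6 of 33 (18.2%) at or above it. Pkp4, a plakophilin of cell junctions, had 7 of 11, Zeb2, a repressor of epithelial genes, 6 of 9 and Cdh1, the epithelial cadherin gene, 3 of 9. The Zeb2 region at chr2:44988503-44989484 was the strongest of its 6 at 48 h, with folds of 10.3 and 17.8.

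At signalling lists the shares were as follows. WNT/beta-catenin targets had 20 of 82, 24.4% (15.6 to 35.1), with 5 at Lef1, 4 at Myc and 3 at Axin2, a feedback inhibitor. LIF/STAT3 targets had 13 of 50, 26.0% (14.6 to 40.3), with 4 each at the receptor gene Lifr and the kinase gene Jak1. Of those at Jak1, chr4:101146035-101146651 and chr4:101147332-101147587 lay inside Raver2. By nearest gene body the LIF/STAT3 count was 11 of 50, 22%. With the strongest 75% of each list the LIF/STAT3 count was 4 of 36, 11.1% beside 25.4% over all. FGF/ERK genes had 17 of 70, 24.3% (14.8 to 36.0), among them 5 of 16 at Spred2 and 3 of 5 at the phosphatase gene Dusp6, whose 2iL folds were 13.1 to 17.0. Nodal/Activin and BMP genes had 21 of 87, 24.1% (15.6 to 34.5), with 4 of 7 at the signal transducer Smad3. Germline genes had 9 of 30, 30.0% (14.7 to 49.4), 6 of them at Prdm1. DNA methylation enzymes had 6 of 36, 16.7% (6.37 to 32.8), but 8 of 30, 26.7%, with the strongest 75% of each list, where the share over all was 25.4%.

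At lineage lists, neural ectoderm genes had 14 of 84 missing at 96 h, 16.7% (9.42 to 26.4), with 3 each at Sox1, Meis2 and Ncam1. Extraembryonic endoderm markers had 5 of 46, 10.9% (3.62 to 23.6), and trophoblast markers 10 of 63, 15.9% (7.88 to 27.3), with 3 of 13 at Tfap2c. Mesoderm and primitive streak genes had 14 of 56, 25% (14.4 to 38.4), 4 of them at Lhx1. Definitive endoderm genes had 11 of 50 and housekeeping genes 11 of 50, each 22.0% (11.5 to 36.0), the latter with 4 at Ywhaz. Fibroblast markers had 7 of 29, 24.1% (10.3 to 43.5). The intervals of most lists include the 26.4% over all regions.

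**Figure D5:**
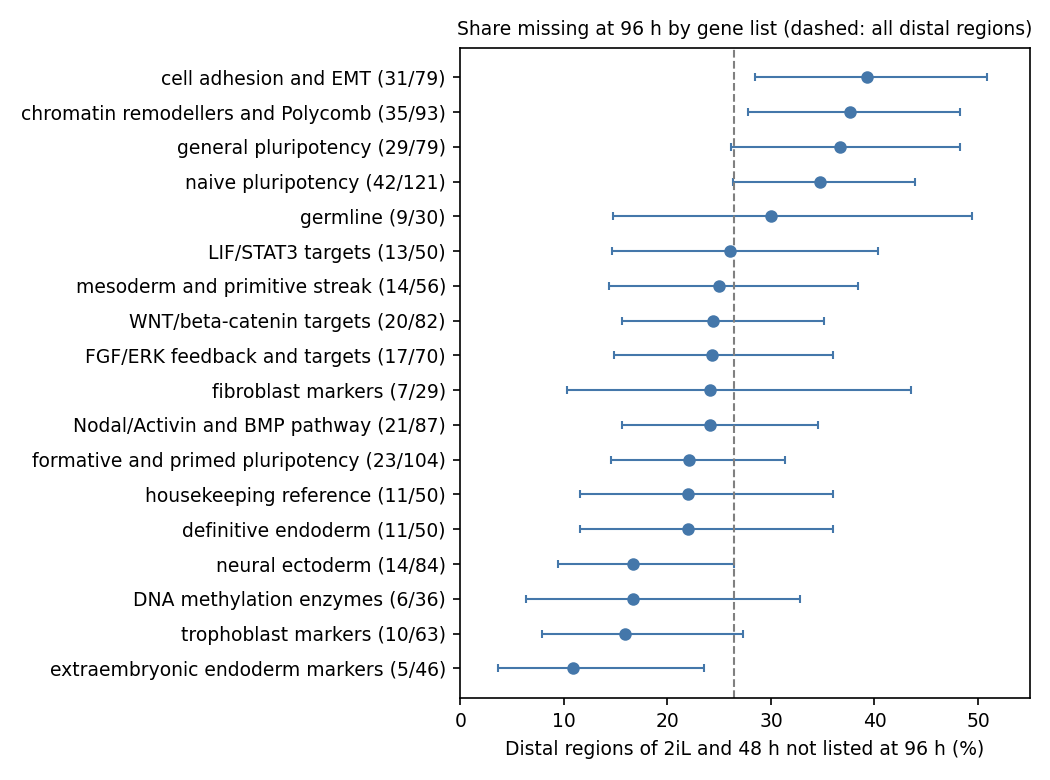
Points give the percent of each list's distal regions in 2iL and at 48 h that were not listed at 96 h, with exact 95% intervals and the counts in brackets, and the dashed line is the 26.4% over all distal regions. Adhesion and EMT genes are highest at 39.2% and extraembryonic endoderm markers lowest at 10.9%.

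Some regions were among the strongest of the 48 h list before they left it. After the 2 of highest 48 h fold, nearest to Gm31714 and to Ahr, the dioxin receptor gene (29.5), came a region inside Spata5 at chr3:37481165-37481777. It was nearest to an end of Nudt6 and had folds of 18.4 in 2iL and 28.4 at 48 h, with no 96 h interval within 33.5 kb. A region near Acp6, a lysophosphatidic acid phosphatase gene, had folds of 25.8 and 26.4, and one near Zfp810 had 19.1 and 25.4. A region inside Kcnmb2, a potassium channel subunit gene, had 13.5 and 24.8 and lay 66.3 kb from a 96 h interval. The one near Runx1, a transcription factor of blood formation (chr16:92571072-92571850), had 22.7 and 24.8. Inside Vcan, the versican gene, folds were 21.5 and 24.0, near the mitochondrial chaperone gene Hspa9 they were 24.1 and 23.4, and near the neuropeptide gene Cartpt 20.9 and 23.2. All 10 were at or above percentile 98.7 of the distal regions by 48 h fold.

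Some of the regions were next to each other. A run is a stretch of distal regions shared by 2iL and 48 h with no persistent distal one between them, and regions outside the distance limits, such as those at gene ends, do not break it. What number of runs the 26.4% missing would give by itself was not tested. Of the 10849, 2418 (22.3%) were in 684 runs of 3 or more, and 5487 stood alone. The longest run had 10 regions over 256 kb at chr4:145489379-145745468, at the zinc-finger genes Zfp990, Gm13212 and Zfp980, with 48 h folds of 4.20 to 13.9. These genes lie in a cluster of similar copies, so the placing of reads among them is uncertain. The next length was 8, at 5 places. They lay at Elovl6 over 81.3 kb, at the ethanolamine kinase gene Etnk1 over 125 kb, and at Arl15 and the complex I gene Ndufs4 over 165 kb. The other runs of 8 spanned Tanc1, Wdsub1, Baz2b and Gm13570 over 241 kb, and Nufip1 and Tsc22d1 over 267 kb. Regions listed at all 3 times but outside the distance limits lay within the span of 4 of these 5, with 5 at Nufip1 and Tsc22d1, 1 at Arl15 and Ndufs4, 1 at Etnk1 and 1 in the Tanc1 run. There were 0 in the Elovl6 run and 0 in the run of 10. At Etnk1, 9 of 10 distal regions shared by 2iL and 48 h were missing at 96 h, at Gm13570 9 of 12, and at Tsc22d1 7 of 14. Gm13570 is a short gene within the span of Baz2b, and the 9 regions nearest to its ends all lay inside Baz2b.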

How the data were processed

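The deposited files are 3 peak lists, 1 for each group, on mm10. Per the labels, samples A and B of a group share a list, so the authors combined replicates before deposit, and 0 columns of per-sample values were left unused. Nothing in the labels says whether A and B were separate cultures. Tools given, per the submitters' processing notes, were BWA, Picard, SAMtools and bcl2fastq version 2.20.0.422. Their roles are not stated there. The peak caller, its limits, duplicate removal and the shift of reads for the transposase were not given in the sources used here, and each could change which weak regions are listed.

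The authors' fold is a linear ratio at a summit. Their deposited p-values are given as −log10 p. Each interval also has a deposited score from 540 to 1000. The q-values in the lists were not used. Intervals took the fold and p of the summit with the highest −log10 p. Folds were compared only within a list. Depth was estimated by solving fold and p for a pileup and a background, which gave whole tags, within 0.02, for 100% of summits with −log10 p under 290 (87.7%, 85.4% and 83.1% of the 3 lists). The fixed steps were tested on simulated data.

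Gene ends, promoter windows and miRNAs came from RefSeq tables of GRCm38.p6, the assembly of mm10, which has 21887 protein-coding genes. All 260 genes of 18 lists matched a gene. Shares have exact binomial 95% intervals. No test was possible with 1 list a group. The members and lists were chosen with earlier results of these data known. Genes were named by rule: the 15 with most members, those nearest to the 10 members of highest 48 h fold, list genes with 3 or more members (every gene with a member for the 3 pluripotency lists), and genes at the 5 longest runs (6 with ties) and at the distance limits. Alternatives changed the overlap that merges intervals, list length and threshold, the gap that counts as missing, the distance limits and the gene assignment. Python 3.11.15, numpy 2.4.6, pandas 2.3.3, scipy 1.17.1 and matplotlib 3.10.9 were used.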

Additional observations from a re-analysis of the deposited data

How the results depend on the processing

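The number of regions was within 1.5 times of 10849 under 7 of 8 alternatives, from 7656 to 10861. The exception was the strongest 75% of the 2iL and 48 h lists against the whole 96 h list, with 5200. Under that setting 17.3% of distal regions were missing at 96 h, 52.3% of the missing ones were inside a gene and 74.4% were below the median 48 h fold. With the strongest 75% of each list, the values were 25.4% missing, 53.0% inside a gene, 59.5% narrower at 48 h and 72.4% below the median fold. With lists of equal length they were 21.9% missing, 62.3% narrower and 76.2% below the median. Counting a 96 h interval within 500 bp as present gave 24.95% missing and 76.1% below the median. Over 5 kb from a gene end, 28.0% were missing and 78.4% were below the median, and up to 50 kb, 25.8% were missing and 55.5% of those were inside a gene. Each of these values lay outside the 95% counting interval of the reported one, or, for the 5200, beyond 1.5 times. The cause of these differences was not tested. The choice of overlap and of the 48 h summit in place of the midpoint left all 5 values within that interval.

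Of 108 counts of missing regions at gene lists under 6 other settings, 83 were within 1.5 times of the reported one and 25 were not. Under the reported setting and the other 6, the shares at naive (24.7% to 44.1%), general (23.1% to 36.7%), chromatin (23.5% to 37.6%) and adhesion genes (25.9% to 40%) were above the share over all distal regions in that setting. Below it in all 7 were neural ectoderm (12.1% to 22.7%), mesoderm (13.2% to 25.5%), definitive endoderm (14.3% to 22.9%), extraembryonic endoderm (8.70% to 12.1%), trophoblast (11.5% to 16.3%), LIF/STAT3 (8.33% to 26%) and housekeeping genes (12.5% to 22%). The side changed with the setting for formative and primed (19.3% to 27.7%), fibroblast (24.1% to 27.3%), WNT (17.5% to 24.4%), FGF/ERK (15.1% to 30.2%), Nodal and BMP (17.4% to 24.1%), DNA methylation (13.3% to 26.7%) and germline genes (19.05% to 30%). The share over all ran from 17.3% to 26.4%. All settings draw on the same 3 peak lists, so they are not independent. In the reported setting, Esrrb held 10 and Zfp42 7 of the 42 naive regions, which lay at 14 genes. Zfp281 held 9 and Sox2 8 of the 29 general ones, which lay at 7 genes.

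No paired analysis was possible because each list holds samples A and B of a group together, and no replicate was left out for the same reason. Signal below the limit of the 96 h list was not measured here, and the effect of depth on absence was not tested.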

Other observations

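MicroRNA hairpins were rare in distal regions of either kind. Of the 10849 regions missing at 96 h, 8 overlapped a hairpin, 0.0737% (0.0318 to 0.145), against 68 of 30256 persistent regions, 0.225% (0.175 to 0.285). The 8 were Mir199a-1, Mir6367, Mir6944, Mir6956, Mir6985, Mir7033, Mir7234 and Mir8095. Folds at the Mir199a-1 region were 4.62 in 2iL and 5.27 at 48 h, and at the Mir8095 region 12.3 and 11.7. These were picked after their values were seen.

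Pkp4 had 24 distal regions listed only in 2iL beside its 7 missing only at 96 h, and 4 persistent ones. Zeb2 had the opposite layout, with 1 region only in 2iL, 6 missing only at 96 h and 14 absent in 2iL and listed later.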
